A study of Mus musculus with 10 samples.

Results

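Sodium channels, HCN channels and T-type calcium channels set when and how readily a heart muscle cell fires. The expression of 7 of their genes was followed in the mouse left ventricle after pressure overload: the sodium channel genes Scn4a, Scn3b and Scn4b, the HCN channel genes Hcn2 and Hcn4, and the T-type calcium channel genes Cacna1g and Cacna1h. They were chosen by gene symbol, every probe of each symbol being taken, and are 7 of the 19942 symbols on the array. Each was represented by 1 probe. The probes of 5 genes (Scn4a, Scn4b, Hcn2, Cacna1g and Cacna1h) were found on all 10 arrays, whereas those of Scn3b and Hcn4 were found on none, as read from the deposited spot flag, in which a negative value was taken to mean not found.

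Transverse aortic banding (TAB) narrows the aortic arch, so that the left ventricle pumps against a raised pressure and hypertrophies. Male C57BL/6J mice, 8 weeks old and weighing 20 to 25 g, were given TAB or a sham operation, and left ventricular RNA was collected on day 3, 5, 7, 14 or 28. There was 1 TAB sample and 1 sham sample on each day, 10 samples in all, 5 per operation. Neither group had a genetic change or a drug treatment by its labels, and TAB was done under isoflurane. How many hearts went into a sample is not given in the sources used here, and the TAB sample placed at day 14 by its title carries the value 15 days in its condition label. With no second sample on any day, the spread used by the tests is that of the TAB over sham ratio between days, which holds changes over time as well as differences between animals and arrays. In whole-tissue RNA, fewer cells of a type and less RNA per cell cannot be told apart.

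As background, voltage-gated sodium channels carry the fast inward current that starts the action potential. Their alpha subunit forms the pore, and beta subunits modify its gating and its delivery to the membrane. HCN channels open on hyperpolarization and carry the pacemaker current, and T-type calcium channels open near the resting potential. Both are known best from nodal and conduction cells and from the fetal ventricle, and both have been described as returning in diseased ventricle.

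Promoter sequence, the 250 bases before an annotated start, was at hand for Scn4a, Scn4b, Hcn2 and Hcn4 (RefSeq, GRCm38.p6) and not for Scn3b, Cacna1g and Cacna1h. The windows of Scn4b, Hcn2 and Hcn4 end at the outer edge of the gene, whereas that of Scn4a lies inside the annotated span of its gene. The windows of Scn4b and Hcn2 are printed because of the windowed genes found on the arrays these are the ones whose TAB over sham ratio reached 1 log2 or more in size on a day, and because they differ in what they hold. Both lie on the plus strand, Scn4b at chr9:45138374-45138623 and Hcn2 at chr10:79716384-79716633. Capitals mark matches, on either strand, to the GC box GGGCGG and to the E-box CANNTG.
Scn4b: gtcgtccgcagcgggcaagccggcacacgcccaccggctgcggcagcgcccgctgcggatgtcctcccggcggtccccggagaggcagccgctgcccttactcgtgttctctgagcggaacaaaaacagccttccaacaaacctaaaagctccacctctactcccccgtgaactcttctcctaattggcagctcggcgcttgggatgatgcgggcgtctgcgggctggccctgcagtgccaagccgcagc
Hcn2: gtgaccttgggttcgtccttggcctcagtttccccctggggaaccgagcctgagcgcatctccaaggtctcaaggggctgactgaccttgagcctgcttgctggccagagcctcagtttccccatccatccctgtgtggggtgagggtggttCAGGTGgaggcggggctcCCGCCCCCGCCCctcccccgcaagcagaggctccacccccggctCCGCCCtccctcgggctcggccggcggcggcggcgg
The GC box was matched 3 times in the Hcn2 window and 2 times in that of Hcn4, with no match in Scn4a or Scn4b. Of all 32851 windows, 32.7% hold it. The E-box was matched 1 time, in Hcn2, against 66.2% of all windows. The GATA motif AGATAA, which 9.99% of all windows hold, was in none of the 4. Neither was the TATA box, spelled TATAAA and present in 12.4% of all windows. The MEF2 motif CTAAAAATA (0.469% of all windows) was likewise unmatched. So was TTCAGCACC, a part of the site of the repressor REST that 0.301% of all windows hold. No match overlapped another. All 4 windows were rich in G and C, at 61.6% for Scn4a, 66.0% for Scn4b, 70.4% for Hcn2 and 71.2% for Hcn4, against a median of 52.4% over all windows. A match is a match of letters only and is not a measured binding site.

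The arrays were read in 1 colour, and the deposited intensities had the background subtracted but were not scaled between arrays. The median raw intensity ran from 34 to 57 and 40.2 to 47.3% of probes were not found. Spots of 2 arrays stood apart in the deposited detection p-value: it was under 0.05 for 38.6% of probes on the sham array of day 7 and for 38.0% on that of day 28, against 18.8 to 23.5% on the other 8 arrays. The raw intensities of the 5 measured channel genes, 45 to 476, lay above the 1st percentile of found spots (25 to 27). Scn4a was the nearest to it, at 45 to 84. The number of arrays limits precision for all of them.

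The 2 T-type calcium channel genes fell in TAB hearts. Cacna1h, which encodes the Cav3.2 pore, was 31.7% lower in TAB than in sham samples on average over the 5 days, and Cacna1g, which encodes Cav3.1, was 35.0% lower. These 2 of the 5 measured genes passed the test (limma, Benjamini-Hochberg adjusted p under 0.05), against 7.87% of all genes tested and 9.46% of genes found on all arrays and as bright as these 5 that were called lower. Both calls were lost when day 3, 5 or 7 was left out, or days 7 and 28 together. Scn4b, Hcn2 and Scn4a had mean values 41.0%, 31.3% and 22.3% lower in TAB and did not pass the test. Of the 25 gene and day ratios of these 5 genes, which share their arrays, 23 were below 0, against 51.6% of the ratios of all genes tested.

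Cacna1h had log2 normalized intensities of 7.88, 7.60, 7.93, 7.89 and 8.00 in the TAB samples of days 3, 5, 7, 14 and 28. In the sham samples of the same days they were 8.39, 8.27, 8.38, 8.38 and 8.64. Every TAB sample was below every sham sample, with 0.27 between the highest TAB and the lowest sham value, and Cacna1h was the 1 gene of the 5 without overlap. Of all genes tested, 7.76% had all 5 TAB values below all 5 sham values. The TAB effect, the mean log2 difference between TAB and sham over the days, was −0.55 (SE 0.098, 95% interval −0.79 to −0.31, limma adjusted p = 0.0242). The daily log2 ratios were close to each other, from −0.67 on day 5 to −0.45 on day 7, and each exceeded the 0.37 that separated the 2 most distant sham samples. The size of the effect ran from −0.57 to −0.52 when each day was left out in turn, but the adjusted p was 0.0779 without day 3, 0.0789 without day 5, 0.0830 without day 7 and 0.0551 without day 14, and stayed under 0.05 without day 28 (0.0403).

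Cacna1g had log2 normalized intensities of 6.26, 6.27, 5.96, 6.89 and 6.38 in the TAB samples, given again from day 3 to day 28. The sham values were 7.27, 6.76, 6.75, 7.05 and 7.04. TAB was the lower on all 5 days, and the groups overlapped through the TAB sample of day 14 alone, which was above 2 of the sham samples. The TAB effect was −0.62 (SE 0.15, 95% interval −0.98 to −0.26, limma adjusted p = 0.0398). The ratio was −1.0 on day 3 and −0.16 on day 14, whereas sham samples differed from each other by up to 0.52. The call was lost without day 3 (adjusted p = 0.109), day 5 (0.100), day 7 (0.123) or day 28 (0.0721), with effects between −0.65 and −0.53, and remained without day 14 (−0.74, 0.0499).

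Hcn2 encodes a pore-forming subunit of the pacemaker channels that is present in working ventricle as well as in conduction tissue. Its log2 normalized intensities in TAB were 7.43, 6.87, 6.76, 7.24 and 7.33 on days 3, 5, 7, 14 and 28. Those in sham were 7.58, 8.01, 7.53, 7.31 and 7.91. TAB was the lower on all 5 days, with log2 ratios of −1.14 on day 5 and −0.07 on day 14, and the groups overlapped between 7.31 and 7.43. The TAB effect of −0.54 (SE 0.18, 95% interval −0.99 to −0.09) had a limma adjusted p of 0.0906.

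Hcn4, the main pacemaker channel gene of the sinoatrial node, was at raw intensities of 1 to 7 and was found on no array. It has no level or fold here, and the same holds for Scn3b, which encodes the beta3 subunit and was at −2 to 5. For neither gene can a difference between TAB and sham be seen at this signal.

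Scn4b encodes the beta4 subunit, which sets how sodium channels reopen on repolarization. Its log2 normalized intensities in TAB were 7.39, 6.70, 7.29, 7.23 and 7.80 on days 3, 5, 7, 14 and 28. In sham they were 8.12, 7.70, 8.64, 7.18 and 8.57. Sham samples were the higher on 4 days with a ratio of −1.35 on day 7, while on day 14 the sham sample was the lowest of its group and the ratio was 0.05. The TAB effect was the most negative of the 5 genes, −0.76 (SE 0.21, 95% interval −1.26 to −0.26). The spread between its sham samples was also the widest, up to 1.47. The limma adjusted p was 0.0541 over all days and 0.0457 without day 14, when the effect was −0.96. Without any other single day it was 0.0961 to 0.151.

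Scn4a encodes the alpha subunit that is the main sodium channel of skeletal muscle. Its log2 normalized intensities in TAB were 6.05, 5.52, 5.54, 5.74 and 5.57 on days 3, 5, 7, 14 and 28. In sham they were 6.20, 5.88, 6.37, 5.69 and 6.10. The groups overlapped, and the TAB sample was the lower on 4 days, all but day 14. The TAB effect was −0.36 (SE 0.15, 95% interval −0.74 to 0.01, limma adjusted p = 0.148).

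**Figure D1:**
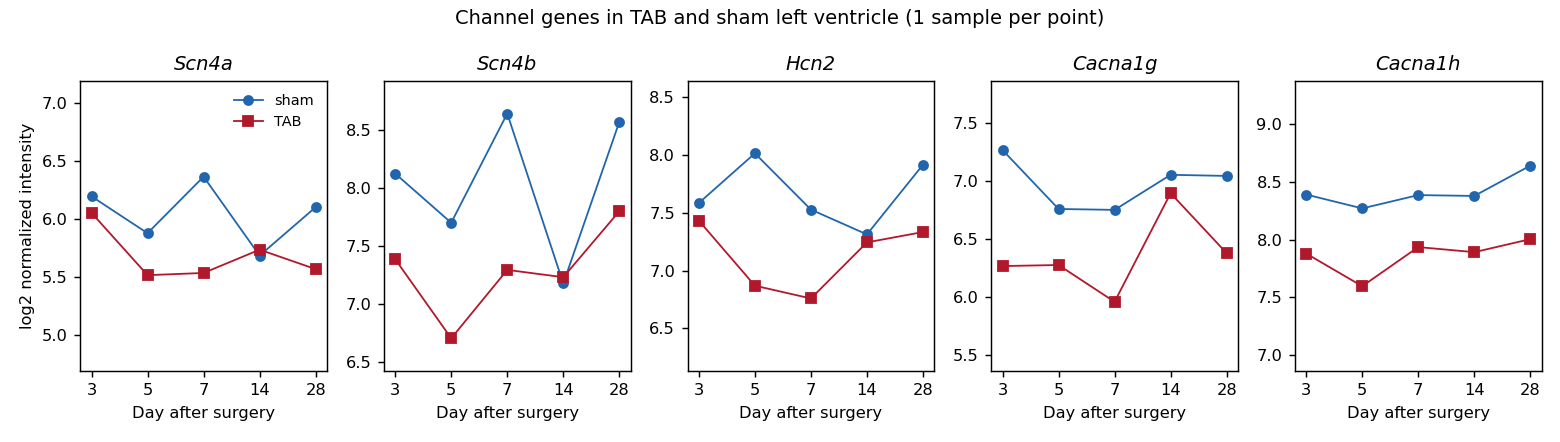
Log2 normalized intensity (vertical axis, each panel spanning 2.5 log2 units around its own centre) of the 5 measured channel genes by day after surgery (horizontal axis, the 5 days evenly spaced). Each point is 1 sample, squares for TAB and circles for sham, and lines join the days. The lines of Cacna1h stay apart, and those of Scn4a, Scn4b, Hcn2 and Cacna1g come together at day 14.

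Against all 16113 genes tested, the counts stood as follows. Beside the 7.87% called lower, the test called 9.19% of all genes higher. Lower values in TAB on 5 of 5 days were seen for 3 genes (Hcn2, Cacna1g and Cacna1h) and for 17.5% of all genes. The same was counted over the 4842 genes found on all arrays whose mean log2 intensity lay within the range of the 5 genes, 5.86 to 8.14. Of these 20.1% were lower on all days. The median effect of the 5 genes was −0.55, whereas it was −0.03 over all genes and −0.04 over the genes of like brightness, whose 10th percentile was −0.56. Of the genes of like brightness, 3.33% had an effect below that of Scn4b, 7.64% below Cacna1g, 10.7% below Cacna1h, 11.1% below Hcn2 and 21% below Scn4a. Genes with such effects were therefore common on these arrays.

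**Figure D2:**
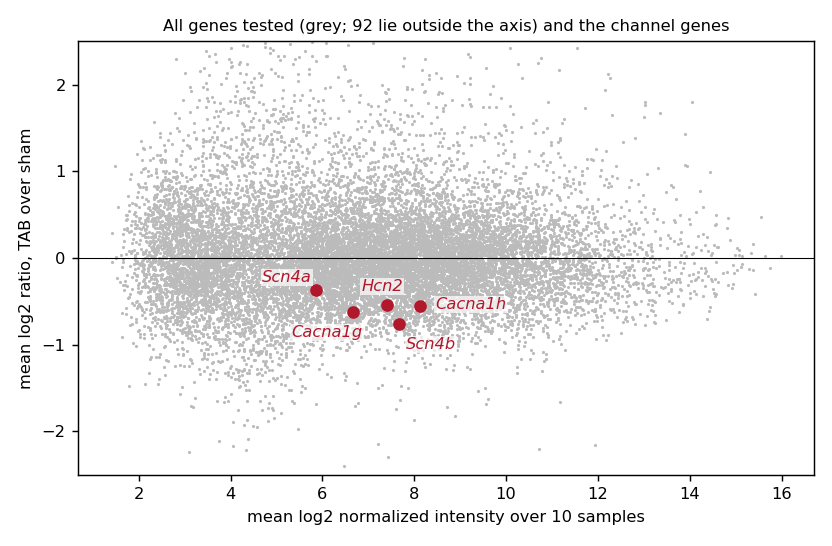
Mean log2 ratio of TAB over sham across the 5 days (vertical axis) against the mean log2 normalized intensity over the 10 samples (horizontal axis) for the 16113 genes tested, in grey, with the 5 measured channel genes as labelled red points (92 genes lie outside the vertical axis). The channel genes sit at medium intensity in the lower part of the cloud, between −0.76 and −0.36.

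By day, the median log2 ratio of the 5 genes was −0.51, −0.67 and −0.79 at days 3, 5 and 7. It was −0.07 at day 14 and −0.63 at day 28. Day 14 was the day on which Scn4a, Scn4b, Hcn2 and Cacna1g each had its ratio nearest to 0 or above it. Cacna1h, at −0.49, was the exception. With a call on a single day set at 2 standard deviations of all ratios of that day (1.78, 1.93, 1.75, 1.48 and 1.38 log2 on days 3, 5, 7, 14 and 28), 0 of the 25 ratios were called, while 7.87% of all genes were lower by that rule on 1 day or more. A ratio of at least 1 log2 in size was reached 3 times, by Scn4b on day 7, Hcn2 on day 5 and Cacna1g on day 3, and 24.2% of all genes were lower by that much on 1 day or more. Having 1 sample per operation and day, these daily values have no replicate check.

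Whether the effect of TAB differed between the late days (14 and 28) and the early days (3, 5 and 7) was tested as a difference of log2 ratios. It was 0.67 for Scn4b (SE 0.35, 95% interval −0.21 to 1.56, limma adjusted p = 0.514), 0.36 for Hcn2 (SE 0.37), 0.35 for Cacna1g (SE 0.28) and 0.20 for Scn4a (SE 0.32), where values above 0 mean ratios nearer to 0 or higher on the late days. For Cacna1h it was −0.02 (SE 0.20, 95% interval −0.52 to 0.48, limma adjusted p = 0.983). Leaving out single days moved these values from 0.26 (without day 14) to 1.08 (without day 28) for Scn4b, from 0.11 (without day 14) to 0.63 (without day 3) for Hcn2, and from 0.093 (without day 14) to 0.60 (without day 28) for Cacna1g, and turned the sign for Scn4a without day 14. None of the 5 genes passed, with adjusted p from 0.514 to 0.983, and neither did any gene of the 16113 (0% called by limma, where 1766 had an unadjusted p under 0.05 and the lowest adjusted p was 0.191). For Scn4a, Scn4b, Hcn2 and Cacna1g the interval leaves room for a change over time of the size of the TAB effect itself, and for Cacna1h it does not reach that size (0.55).

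**Figure D3:**
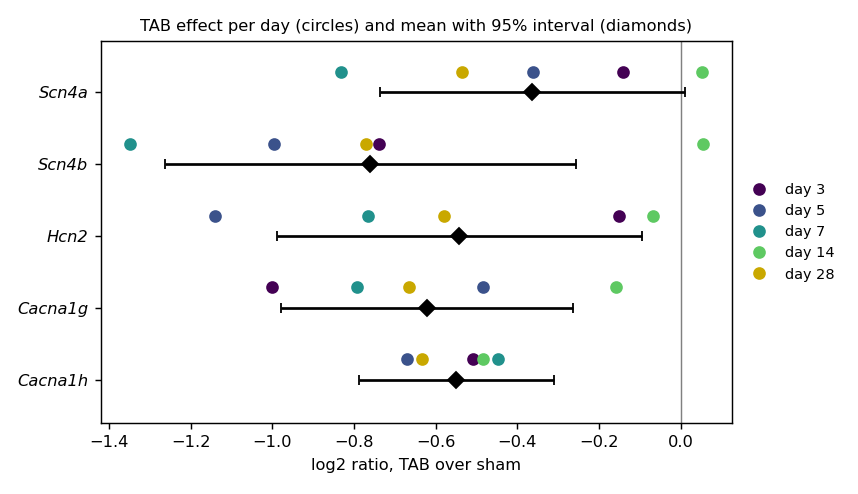
Log2 ratio of TAB over sham (horizontal axis) of the 5 measured channel genes (rows). Circles are the ratios of single days, 1 sample per operation each, and diamonds with bars are the mean effect and its 95% interval from limma. All circles but those of Scn4a and Scn4b on day 14 lie below 0, and only the interval of Scn4a reaches 0.

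The deposited detection p-value followed the arrays that stood apart. It was under 0.05 for Scn4b, Hcn2, Cacna1g and Cacna1h on 2 of the 5 sham arrays, those of days 7 and 28, and on 0 of the 5 TAB arrays. For Scn4a it was under 0.05 on none. Without days 7 and 28, the effects were −0.55 for Cacna1g (limma adjusted p = 0.211) and −0.56 for Cacna1h (0.130), values near those over all days, and neither passed. The other genes had effects nearer to 0 than over all days, −0.45 for Hcn2 (0.354, against −0.54), −0.56 for Scn4b (0.254, against −0.76) and −0.15 for Scn4a (0.594, against −0.36). With 3 days left, limma called 0 of all 16113 genes.

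Other genes of the same channel families were read from lists of their subunits, partners and transcription factors. Of 52 genes, 38 were tested and 21 were found on all arrays. The test called 1 of the 38 higher and 3 lower, against 9.19% and 7.87% of all genes, and their median effect was −0.14.

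Among the sodium channel pore genes of the lists, 0 of the 4 tested passed. Scn7a, the 1 of them found on all arrays, had an effect of 0.31 (SE 0.13, limma adjusted p = 0.159) and was higher in TAB on 5 of 5 days. Of 9 sodium channel partners, 1 passed. Nedd4l, a ubiquitin ligase known to remove sodium channels from the membrane, was lower by its dimmer probe, with an effect of −1.19 (SE 0.23, limma adjusted p = 0.0264). That probe was found on 5 sham arrays and 1 TAB array, so its TAB level rests mostly on spots not found. Its adjusted p was up to 0.0921 when single days were left out, and the other Nedd4l probe had an effect of −0.25 (adjusted p = 0.256 with each probe tested on its own).

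Of the HCN list only Kctd3, an HCN channel partner, was found on all arrays. Its effect was 0.22 (SE 0.12, limma adjusted p = 0.242). Cacna1i, the remaining T-type gene, had an effect of −0.33 (SE 0.15, limma adjusted p = 0.177) and was lower on 5 of 5 days, with ratios of −0.02 on days 7 and 14 and −0.84 on day 28.

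Among high-voltage-activated calcium channel pores, 1 of 6 passed: Cacna1s, the pore of the skeletal muscle L-type channel, with 4.46 ± 0.55 in TAB and 5.92 ± 0.41 in sham (n = 5), an effect of −1.46 (SE 0.24, limma adjusted p = 0.0217) and a probe found on 5 sham arrays and 1 TAB array. As for Nedd4l, the TAB mean and so the effect rest mostly on spots that were not found. The call held without day 14 or day 28 and was lost without any other single day, with adjusted p up to 0.0774. Of the auxiliary subunits 2 of 9 passed. Cacnb2, the main beta subunit of the cardiac L-type channel, fell by 0.66 (SE 0.13, limma adjusted p = 0.0276) and was lower on 5 of 5 days. Its adjusted p was 0.0495 to 0.0890 when single days were left out. Cacnb1 passed as higher by 1 probe (effect 0.56, adjusted p = 0.0360), while its other probe had an effect of −0.51 (adjusted p = 0.0369 with each probe tested on its own), so no direction is given for this gene. Of the transcription factors 0 of 7 passed. The brightest, Egr1, had an effect of −0.12 (SE 0.65), which was 0.63 without day 14, and Rest, a repressor of neuronal and fetal cardiac channel genes, was found on no array.

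**Figure D4:**
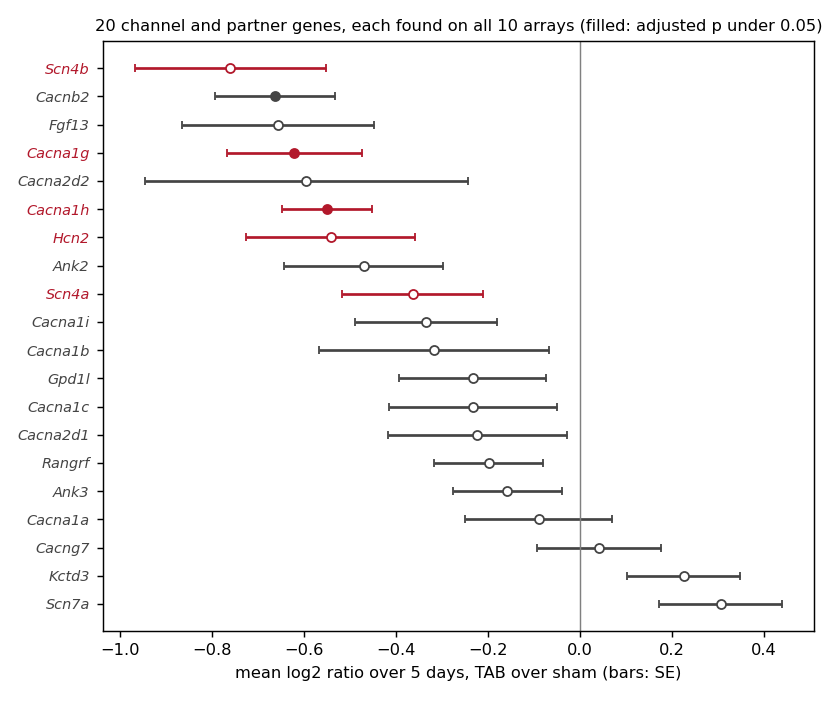
Mean log2 ratio of TAB over sham over the 5 days with its SE (horizontal axis) for the 5 measured channel genes (red) and 15 other channel and partner genes, each found on all 10 arrays (grey), in order of effect. Filled points passed the test (adjusted p under 0.05). Scn4b lies lowest at −0.76, the others run up to 0.31, and Cacna1s, Cacnb1 and Nedd4l are not drawn because their chosen probes were not found on every array.

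Marker genes of the cells in the tissue moved with the operation too. All 9 ventricular cardiomyocyte markers were found on all arrays and the ranges of their summed level overlapped, 17.91 to 17.97 (log2) in TAB and 17.95 to 18.09 in sham. The brightest, Myl2, was saturated (raw intensity of 65000 or more) on 9 of 10 arrays, and the sum of the other 8 was 17.47 to 17.54 in TAB and 17.52 to 17.71 in sham. Effects were below 0 for 7 of the 9, with a median of −0.14, and 1 fell, Atp2a2 (the calcium pump of the sarcoplasmic reticulum) by 0.49 (limma adjusted p = 0.0370). The Atp2a2 probe was the dimmest of the 9, with a mean of 7.20 in TAB and 7.69 in sham. The next, Ryr2, was at 12.08 and 12.44. Of 6 fibroblast markers 4 rose, among them Postn by 3.37, and none fell. The sum of the 5 found on all arrays was 14.84 to 15.50 in TAB and 14.27 to 14.49 in sham. Of 6 leukocyte markers 4 rose, among them Cd68 by 2.01, and 1 fell, Cd3e by 0.59, with sums of 11.18 to 12.30 in TAB and 10.68 to 11.09 in sham. Cd79a had an effect of −0.49 (limma adjusted p = 0.0577) and, like Cd3e, was lower in TAB on 5 of 5 days. The fibroblast and leukocyte sums were thus higher in every TAB than in every sham sample, though not every member was.

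HCN and T-type channels are abundant in nodal and conduction cells, so the markers of these cells bear on the same genes. None of 7 tested atrial and nodal markers passed, with sums of 12.66 to 13.03 in TAB and 12.89 to 13.65 in sham. Their effects were below 0 for 4 of the 7, with a median of −0.40, and the atrial genes Sln (effect −0.90, limma adjusted p = 0.156) and Myl7 (−0.81, 0.114) were lower in TAB on 5 of 5 days. The effects of Tbx18 (0.54, limma adjusted p = 0.0812), Smoc2 (0.32) and Tbx3 (0.03) were above 0, and Tbx18 and Smoc2 were higher in TAB on 5 of 5 days. Without Smoc2 the sums were 11.83 to 12.53 in TAB and 12.51 to 13.45 in sham. The nodal regulators Shox2 and Isl1 were under the intensity limit. Of 5 markers of the ventricular conduction system 1 passed, Cntn2 (contactin 2), which fell by 0.88 (limma adjusted p = 0.0235). All 5 had effects below 0, with a median of −0.37. The sum of the 4 found on all arrays was 10.65 to 10.90 in TAB and 10.45 to 11.49 in sham, with Irx3 (effect −0.21) the brightest.

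For the skeletal muscle gene Scn4a, 1 of 6 tested skeletal muscle markers was higher (Myl1, by 0.92) and 1 lower (Chrna1, effect −1.0, found on 2 TAB and 4 sham arrays), and the effects of 4 of the 6 were below 0, with a median of −0.38. The sum of the 3 found on all arrays, 12.20 to 13.36 in TAB and 11.95 to 12.15 in sham, was carried by Myl1, and the sum of the other 2 was 7.21 to 7.98 in TAB and 7.80 to 7.98 in sham. The fast myosin genes Myh1, Myh2 and Myh4 were under the intensity limit. Of the neuron and Schwann cell markers 2 of 8 rose (Uchl1, and Tubb3, which was found on no sham array). The sums of the 5 found on all arrays were 10.46 to 11.56 in TAB and 9.68 to 10.18 in sham. Of the smooth muscle and pericyte markers 1 of 4 was higher (Tagln, found on 4 TAB arrays and no sham array). The sums of the 3 found on all arrays were 10.69 to 11.15 in TAB and 10.66 to 11.27 in sham. None of 5 endothelial markers passed, with sums of 12.26 to 12.76 in TAB and 12.17 to 12.47 in sham. The part of the mix of cells in the values of the channel genes was not tested.

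The genes with the profile most like each channel gene over the 10 samples were named by the root mean square difference of log2 values, each centred on its own mean, over 10534 other genes found on all arrays. For Cacna1h they were 1110067D22Rik (0.07), Rbm39 (0.08) and Zfp655 (0.08). For Cacna1g they were Siglecg (0.14), Gm10844 (0.17) and Zfp385a (0.17), and for Hcn2 Nfkb1 (0.11), Acy3 (0.12) and Odf3l2 (0.12). Scn4a was nearest to Axin1 (0.11), 1700007B14Rik (0.11) and Kcnh7 (0.12), a potassium channel gene. Scn4b had the least close neighbours, Zg16 (0.19), E030019B06Rik (0.20) and Hsd17b14 (0.22). Between the channel genes themselves the differences ran from 0.25 for Scn4a and Cacna1h to 0.54 for Scn4b and Cacna1g. The nearest genes were picked as the smallest of 10534 differences, so the values for them and for the channel genes are not comparable. This measure is a description over samples that share their arrays.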

How the data were processed

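Left ventricular RNA from 10 samples was labelled with Cy5 and hybridized to the Mouse Whole Genome OneArray v2 (Agilent scanner, GenePix 4.1). The authors deposited, for 26423 probes, a raw intensity (background subtracted by a method not given in the sources used here), a detection p-value and a flag score. The deposited flag score was read as not found where negative; the deposited p-value decided no call. Of these, 3633 carry no symbol; they entered the scaling and normalization but no gene test.

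Arrays were brought to the same median, probes under 1 on any array were removed (19976 remained), quantile normalization gave each rank its median over the arrays, and values were put on the log2 scale. A gene with several probes was represented by the one with the largest summed absolute log2 ratio. The TAB effect was tested with limma 3.58.1 in R 4.3.3 (lmFit, eBayes) over 16113 genes, the day after surgery serving as a block, and with a Benjamini-Hochberg threshold of 0.05, and was tested on simulated data. TAB and sham were paired by the labelled day; deviations of same-day samples from their group means correlated across genes at r = 0.113, −0.0165, 0.0065, 0.0029 and 0.0140 on days 3, 5, 7, 14 and 28. Python 3.11.15 with numpy 2.4.6, pandas 2.3.3 and matplotlib 3.10.9 did the rest.

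The 7 genes, the lists and the tests were chosen with earlier results of these data known. Genes to be named were the 7, from each family list those that passed or else the brightest, and the 3 nearest profiles per gene, though not all of these are reported here and the family counts leave some genes out. Alternatives covered normalization, an added intensity of 50, filters on dim probes, probe choice, the fit and each day left out; leaving out probes not found on any 1 array, days 7 and 28, or a bright marker from a sum of markers, were chosen after seeing the data.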

Additional observations from a re-analysis of the deposited data

How the results depend on the processing

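The effects of Scn4a, Scn4b, Hcn2, Cacna1g and Cacna1h stayed below 0 in 18 of 18 alternatives each; their side of the threshold did not. Of these 5 genes, 2 were called lower, against 4 with 50 added, without the dimmest tertile of genes, with trend and robust on or with probes not found on any 1 array left out, and 0 with probes below 1 set to 1 or with days 7 and 28 left out. Leaving out 1 day at a time gave 0 to 2. Lower calls over all genes moved with them, from 1268 of 16113 to 2227, 1951 of 10742, 2064 and 2046 of 11059 in the first 4 settings, and to 218 of 19942 and 0 in the other 2. Scn4b passed with 50 added (−0.62, adjusted p = 0.0226), the dimmest tertile out (−0.76, 0.0194), trend and robust on (−0.76, 0.0146) and found probes only (−0.76, 0.0149), and Hcn2 in the same settings (−0.42 with 0.0468, then −0.54 with 0.0401, 0.0380 and 0.0336). With probes below 1 set to 1, adjusted p was 0.0762 for Cacna1g (−0.62) and 0.0525 for Cacna1h (−0.55), and with days 7 and 28 left out 0.211 (−0.55) and 0.130 (−0.56). That last setting gave −0.15 for Scn4a, −0.56 for Scn4b and −0.45 for Hcn2. Leaving out 1 day at a time gave effects of −0.47 to −0.25 for Scn4a, −0.96 to −0.61 for Scn4b, −0.66 to −0.39 for Hcn2, −0.74 to −0.53 for Cacna1g and −0.57 to −0.52 for Cacna1h.

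Without the replicate block, adjusted p was 0.0315 for Cacna1g, 0.00909 for Cacna1h, 0.0920 for Scn4b, 0.0546 for Hcn2 and 0.124 for Scn4a, which changed none of these 5 calls; Cacnb1 lost its call (0.0589) and 5 other channel genes were lower in place of 3. Calls of other channel genes, 1 higher and 3 lower, became 0 and 1 when probes below 1 were set to 1, 0 and 0 with days 7 and 28 left out, and 0 to 1 and 0 to 4 with single days left out. Averaging the probes of a gene, or taking its brightest, left 0 higher, and 6 were lower with 50 added and 5 with trend and robust on. Cacnb1 turned to −0.36 with 50 added, −0.39 with probes below 1 set to 1 and −0.51 with the brightest probe or found probes only, its probe being another one there; Egr1 turned to 0.63 without day 14. The late minus early difference ran from −0.090 (without day 14) to 0.50 for Scn4a and from −0.091 to 0.058 for Cacna1h with single days left out, being 0.00021 and 0.03 for Cacna1h without days 3 and 7. With 50 added 1 ratio on a day was called, and 3 at a limit of 1 log2. Over all genes 1481 were higher and 1268 lower, against 1782 and 855 with median scaling only, 1871 and 950 with normalization within each operation, 2242 and 2227 with 50 added, 459 and 218 when probes below 1 were kept, and 29 and 1, 86 and 12, 20 and 2, 565 and 382, or 1482 and 1271 without day 3, 5, 7, 14 or 28. The cause of these moves was not tested. Depth has no meaning for these arrays. Signal near background leaves Scn3b and Hcn4 without a level. For the other 5 genes the deposited detection p-value was under 0.05 on 0 of the 5 TAB arrays.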
